A study of Mus musculus with 4 samples.

Results

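Genes that bridge apoptotic cells to phagocytes, or that take such cells up, were examined in adult bone marrow mesenchymal stromal cells (MSCs). The 10 genes were chosen by symbol among the 56980 genes of the deposited count table, and all 10 were found there: the bridging genes Mfge8, Edil3, Gas6 and Pros1, the TAM receptors Axl, Tyro3 and Mertk, and the uptake receptors Lrp1, Stab2 and Timd4. The rule uses no measured value. The study asked which ligands and receptors could connect MSCs with macrophages of embryonic or adult origin. Its MSC side, analysed here, is 1 RNA-seq library from each of 4 male wild-type C57BL/6J mice of an in-house inbred colony, aged 14 weeks and untreated as far as the labels say. Each library was made from 100 cells, gated by flow cytometry as negative for CD45, Ter119, CD31 and Sca1 and positive for CD51 and PDGFRa, with full-length cDNA primed on poly(A) tails, amplified by PCR and tagmented. The 4 libraries form a single group, macrophage libraries were not analysed here, and so levels were compared between genes and between mice but not between conditions.

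A dying cell exposes phosphatidylserine on its outer surface, and phagocytes recognise this lipid either directly or through soluble bridging proteins. Mfge8 and its close relative Edil3 bind the lipid with their discoidin domains and bind integrins through an Arg-Gly-Asp motif, whereas Gas6 and Pros1 bind it with vitamin K-dependent Gla domains and engage the receptor tyrosine kinases Tyro3, Axl and Mertk, together called TAM. Lrp1 takes up calreticulin-marked cells, and Stab2 and Timd4 bind phosphatidylserine themselves. In bone marrow this clearance is best known from macrophages.

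Both integrin bridges carry Arg-Gly-Asp codons in an internal coding exon. The stretches around them are shown because Mfge8 and Edil3 share this motif. The coding sequences of Gas6 and Pros1 were not searched for it. The stretches were read from the GENCODE M21 transcripts (GRCm38), run 5′ to 3′ on the coding strand, and have the 9 bases of the motif in capitals with 30 bases on either side.
Mfge8: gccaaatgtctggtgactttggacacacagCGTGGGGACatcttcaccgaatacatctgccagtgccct
Edil3: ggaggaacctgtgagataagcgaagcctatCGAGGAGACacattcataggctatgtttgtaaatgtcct
The Mfge8 stretch lies at chr7:79145278-79145346 on the minus strand, in exon 3 of 10, and its motif covers codons 87 to 89 of 463, counted from the start codon. The Edil3 stretch lies at chr13:89042461-89042529 on the plus strand, in exon 4 of 11, with the motif at codons 96 to 98 of 480. Each coding sequence holds the motif once in frame. Of the 69 bases, 33 were identical between both genes (47.8%), and 2 of the 9 motif bases differed. Neither gene shares a near-identical stretch of at least 100 bases with any other annotated gene.

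The libraries held between 22738604 and 43545349 counts on genes, and between 16109 genes, in mouse 2, and 18907 genes had at least 1 count. Counts were converted to TPM, a length-corrected level in which each count is divided by the length of the gene's merged exons and a library is scaled to 1000000. The positive sort antigens Pdgfra and Itgav (CD51) were above 1 TPM in every mouse, with Pdgfra at 38.4, 48.2, 30.7 and 41.7 TPM. All 6 Lepr-type stromal markers and all 5 osteoblast markers were above 1 TPM in every mouse as well. Osteoblast markers summed to 139433, 158728, 100027 and 196750 TPM in mice 1 to 4. Lepr-type markers summed to 1232, 5268, 2768 and 1416 TPM. Bglap, an osteoblast marker, ranked 1 by median among all genes with a length (108215 TPM). The part of osteoblasts in the levels of the bridging and uptake genes was not tested. No count fell on 3 of the 6 macrophage markers, Adgre1, Csf1r and C1qa, whereas Cd163 was above 1 TPM in every mouse and Cd68 and Mrc1 had counts in some or all mice. Chondrocyte markers summed to 6.87, 0.213, 12.2 and 1.25 TPM in mice 1 to 4, with 1 of 3 genes above a median of 1 TPM. The sort was for Sca1- cells, and Ly6a, which encodes it, had 1, 120, 0 and 144 counts in mice 1 to 4, while Ptprc (CD45) had 2, 2, 0 and 50 counts.

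With the cutoff that the study used for expressed ligands and receptors, a median above 1 TPM over the 4 mice, 6 of the 10 genes were expressed: Gas6, Mfge8, Pros1, Mertk, Lrp1 and Axl. The same cutoff was passed by 44.2% of all protein-coding genes and by 22.9% of all genes with a length. All of these but Axl were above 1 TPM in every mouse, which held for 5 of the 10 genes and for 30.1% of protein-coding genes. Tyro3, Edil3, Timd4 and Stab2 lay below the cutoff. The median of the 10 gene medians was 8.86 TPM, beside 0.135 TPM for all protein-coding genes and 9.86 TPM for those past the cutoff. As each library is bulk RNA of 100 cells, fewer cells that express a gene and less RNA per cell cannot be told apart.

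**Figure D1:**
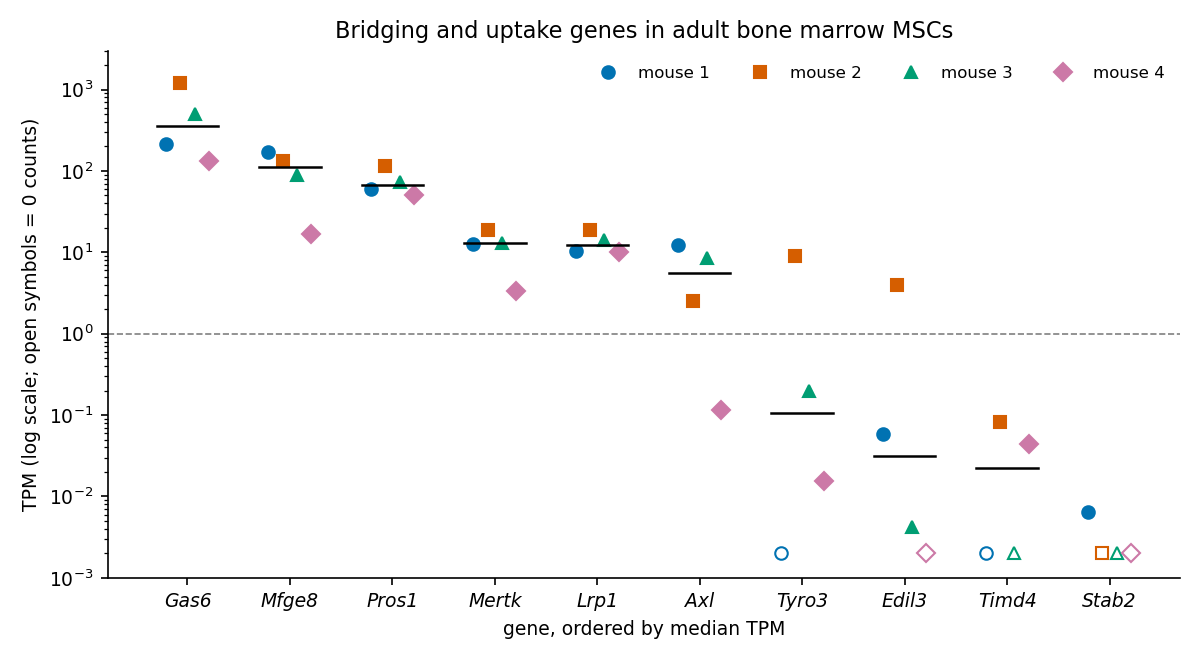
TPM of the 10 bridging and uptake genes in each of the 4 MSC libraries, on a log axis and ordered by median. Symbols and colours mark the mice, black bars the medians, the dashed line 1 TPM, and open symbols near the lower edge values of 0 counts. Gas6, Mfge8, Pros1, Mertk and Lrp1 lay above 1 TPM in every mouse, whereas Tyro3 and Edil3 did so in mouse 2 alone.

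Mfge8 (ENSMUSG00000030605, GRCm38 chr7:79133768-79149060, minus strand), the milk fat globule protein that tethers dying cells to integrins, was abundant in these stromal cells. It had 14115, 6848, 7298 and 815 counts in mice 1 to 4, or 171, 131, 90.0 and 16.8 TPM (102 ± 65.8 TPM, mean ± SD, n = 4). By its median of 111 TPM it ranked above 98.3% of the genes with a length. Mouse 4 was the low library, and the highest value was 10.2 times the lowest. A coefficient of variation of 64.4% was reached or exceeded by 5.07% of the 828 protein-coding genes with a mean from 100 to 1000 TPM, whose median was 24.7%, beside 1.23% from counting error. Without mouse 4 the coefficient for Mfge8 was 31.0%, a value that 34.7% of such genes reached. These shares depend on where the range begins, since the mean of Mfge8 lay at its lower edge and was 79.3 TPM without mouse 1. The protein-coding genes with a mean from 10 to 100 TPM had a median coefficient of 44.0%.

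The summed level of the 6 macrophage markers was 3.92, 9.54, 14.3 and 6.34 TPM in mice 1 to 4, and most of it was Cd163 with 325, 564, 717 and 301 counts. Cd68 had 11, 0, 144 and 5 counts. The part of these markers in the level of Mfge8 was not tested. The protein-coding genes whose levels were most like those of Mfge8, by root-mean-square difference in log2(TPM + 1) over the 4 libraries, were Id1 (0.37), an inhibitor of basic helix-loop-helix factors, Scamp3 (0.51), Pja1 (0.53), Tmem70 (0.57) and Ubac2 (0.62). Id1 had 175, 150, 54.5 and 16.3 TPM, so that mouse 1 was highest and mouse 4 lowest in both genes. With 4 libraries this likeness is a description only.

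Edil3 (ENSMUSG00000034488, GRCm38 chr13:88821472-89323223, plus strand), the integrin bridge best known from endothelial cells and the embryo, was above 1 TPM in a single library. It had 14, 604, 1 and 0 counts in mice 1 to 4, or 0.0582, 3.97, 0.00423 and 0 TPM. Mouse 1 was above the detection floor of 3 counts as well, at a much lower level, and in mouse 4 that floor was equal to 0.0212 TPM. The mean of 1.01 TPM rested on mouse 2, since without it the mean was 0.0208 TPM. Endothelial markers summed to 0.119, 1.28, 0.0465 and 1.10 TPM in mice 1 to 4, with Cdh5 and Kdr at 0 counts in every library. Most of the sums in mice 2 and 4 was Tek alone, with 1.11 and 0.863 TPM. The part of these markers in the level of Edil3 was not tested.

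Mfge8 was higher than Edil3 in 4 of 4 mice, by 7.34, 4.73, 6.50 and 4.15 in log2(TPM + 1) for mice 1 to 4 (5.68 ± 1.49, mean ± SD). The difference exceeded its spread between mice. An exact permutation test that flips the signs of the 4 differences (two-sided) gave p = 0.125, which is the lower limit for 4 mice, and adjusting by Benjamini-Hochberg over the 8 gene pairs gave 0.143, so that no pair could pass 0.05.

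Gas6 (ENSMUSG00000031451, GRCm38 chr8:13465374-13494490, minus strand), the ligand that binds all TAM receptors, was the most abundant of the 10 genes. It had 9628, 34309, 22112 and 3483 counts in mice 1 to 4, or 215, 1210, 502 and 132 TPM (515 ± 490 TPM, and a mean of 283 TPM without mouse 2). At the median it reached 358 TPM, a rank of 295 among the 52125 genes with a length. Mouse 2 was highest and mouse 4 lowest, 9.15-fold apart, and a coefficient of variation as high as its 95.2% was found in 2.05% of the protein-coding genes with a mean from 100 to 1000 TPM. Lepr-type stromal markers were likewise highest in mouse 2, with summed levels of 1232, 5268, 2768 and 1416 TPM. Among them Cxcl12, the niche chemokine, had 983, 4329, 2224 and 1079 TPM and Adipoq had 184, 635, 399 and 185 TPM. Their part in the spread of Gas6 was not tested. Gas6 shares 34 exonic bases (1.33%) with Tmem255b on the opposite strand, and the counting parameters given include no strand option, but Tmem255b had 0, 0, 2 and 0 counts.

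Pros1 (ENSMUSG00000022912, GRCm38 chr16:62854307-62929346, plus strand), which encodes the anticoagulant protein S and binds Tyro3 and Mertk, had the lowest coefficient of variation of the bridging genes over the 4 mice, but not without mouse 4 (34.9%, against 31.0% for Mfge8). It had 4264, 5220, 5192 and 2128 counts in mice 1 to 4, or 59.3, 115, 73.5 and 50.4 TPM (74.5 ± 28.5 TPM). The highest and lowest mice were 2.28-fold apart, and its coefficient of variation of 38.3% was below the median of 44.0% for the 4055 protein-coding genes with a mean from 10 to 100 TPM. Gas6 was higher than Pros1 in 4 of 4 mice, with a log2(TPM + 1) difference of 2.34 ± 0.90 (exact permutation p = 0.125, adjusted p = 0.143). The smallest of the 4 differences, 1.38 in mouse 4, was still larger than the SD.

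The lead ligands of both routes were then compared. Gas6 exceeded Mfge8 1.26, 9.23, 5.58 and 7.87-fold in TPM in mice 1 to 4, and the difference Mfge8 minus Gas6 was -2.22 ± 1.30 on the log2(TPM + 1) scale (p = 0.125 in the exact permutation test, 0.143 adjusted). In mouse 1 both genes were close, and the direction there depended on the gene length. The merged exons of Mfge8 span 4694 bases against 2125 for its longest protein-coding transcript, whereas for Gas6 both are 2548. With the latter length, an alternative chosen after the data were seen, Mfge8 had 271, 212, 144 and 27.1 TPM and Gas6 had 154, 888, 364 and 96.5 TPM. Mfge8 was then 1.76 times Gas6 in mouse 1 and 0.239, 0.396 and 0.281 times in mice 2, 3 and 4, and the mean difference of -1.09 no longer exceeded its SD. With the longest transcript of any kind Mfge8 was likewise the higher gene in mouse 1 alone, and the difference of -1.23 was within its SD.

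As a share of the summed TPM of the 4 bridging genes, Gas6 took 48.3%, 82.9%, 75.4% and 66.3% in mice 1 to 4. The share of Mfge8 was 38.4%, 8.98%, 13.5% and 8.42% (17.3 ± 14.2%), set apart by mouse 1, without which its mean was 10.3%. Pros1 took 13.3%, 7.86%, 11.0% and 25.3%, and Edil3 no more than 0.272% in any mouse. Gas6 was the largest of these shares in every mouse with merged exon lengths. With the length of the longest protein-coding transcript the mean share of Mfge8 was 28.8%. The sums of erythroid, neutrophil and megakaryocyte markers were also highest in mouse 1, unlike that of macrophage markers. Within the neutrophil markers S100a9 was highest in mouse 2, with 19.6 TPM against 3.92 TPM in mouse 1. The megakaryocyte sum of mouse 1 was nearly all Gp9 (7.87 TPM). Erythroid markers summed to 3821, 21.1, 1336 and 277 TPM in mice 1 to 4 (4 of 4 genes with a median above 1 TPM), neutrophil markers to 39.6, 19.6, 5.96 and 7.81 TPM (3 of 5, with Ngp at 0 counts throughout) and megakaryocyte markers to 7.95, 0, 0.267 and 0 TPM (0 of 4). Their part in the share of Mfge8 was not tested. Summed over the 4 bridging genes the level was 445, 1460, 666 and 199 TPM, highest in mouse 2 and lowest in mouse 4.

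**Figure D2:**
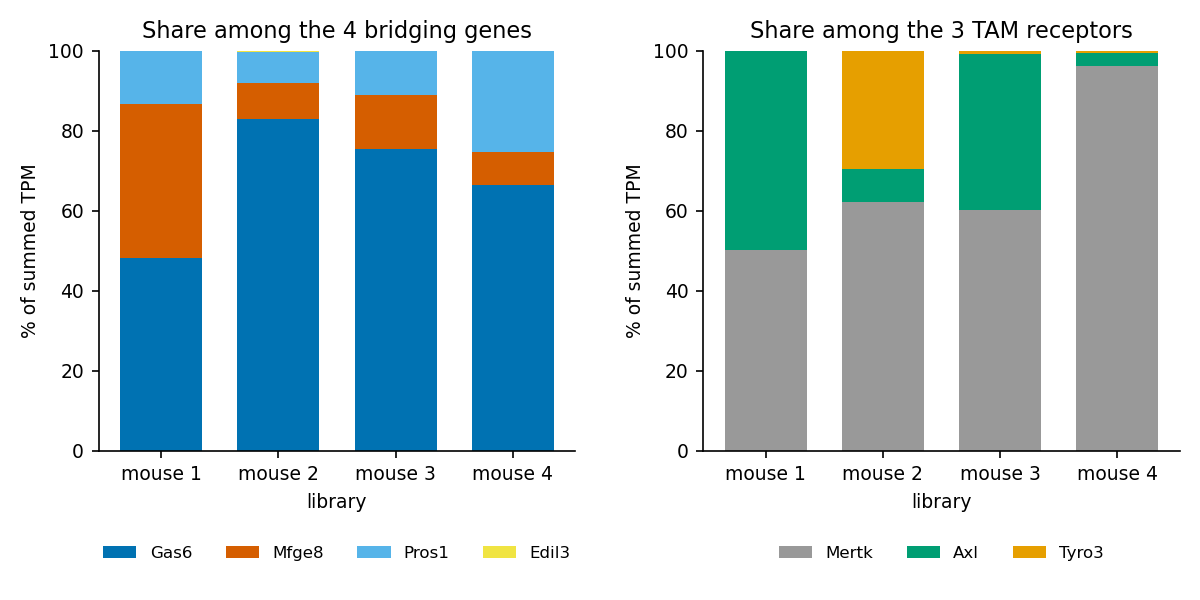
Share of each gene in the summed TPM of the 4 bridging genes (left) and of the 3 TAM receptors (right), as stacked bars in percent, 1 bar per mouse. Mfge8 took 38.4% of the bridging genes in mouse 1 and at most 13.5% elsewhere, and Tyro3 took 29.6% of the TAM receptors in mouse 2 and at most 0.895% elsewhere.

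Of the TAM receptors, Mertk (ENSMUSG00000014361, GRCm38 chr2:128698956-128802894, plus strand), the receptor best known for the clearance of dying cells, was found in every library. It had 961, 912, 988 and 152 counts in mice 1 to 4, or 12.6, 18.9, 13.2 and 3.39 TPM (12.0 ± 6.42 TPM). As for Mfge8, mouse 4 was the low library, and without it the coefficient of variation dropped from 53.4% to 23.4%. The part of RNA from macrophages, whose markers are given above, was not tested for Mertk.

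Axl (ENSMUSG00000002602, GRCm38 chr7:25757273-25788705, minus strand), a TAM receptor engaged by Gas6 and not by protein S, varied far more. It had 1102, 143, 741 and 6 counts in mice 1 to 4, or 12.4, 2.55, 8.52 and 0.115 TPM (5.91 ± 5.61 TPM, and a mean of 3.73 TPM without mouse 1). The 6 counts of mouse 4 have a 95% exact Poisson interval of 2.20 to 13.1 counts, or 0.0423 to 0.251 TPM, which covers counting error only and lies below the other 3 libraries. The highest and lowest mice were 108-fold apart. The coefficient of variation of Axl was 94.9%. Of the 5727 protein-coding genes with a mean from 1 to 10 TPM, 42.2% had that coefficient or a higher one. Under 3 counts in some mouse were found in 41.8% of the 5727 genes. The share of genes with a range as wide as that of Axl was not computed.

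Tyro3 (ENSMUSG00000027298, GRCm38 chr2:119797733-119818104, plus strand), the TAM receptor best known from the nervous system, was found mainly in mouse 2. It had 0, 621, 21 and 1 counts in mice 1 to 4, or 0, 9.01, 0.196 and 0.0156 TPM, where 3 counts correspond to 0.0275 TPM in mouse 1 and 0.0468 TPM in mouse 4. The mean of 2.30 TPM became 0.0706 TPM without mouse 2. Mouse 2 was thus the high library for both Tyro3 and Edil3, and it also had the fewest genes detected. Among the protein-coding genes with a mean from 1 to 10 TPM, 8.07% had a coefficient of variation as high as Tyro3 (194%). For Edil3 (196%) the share was 7.61%. Both genes reach that range only through mouse 2, the library that makes their spread, so these shares cannot tell whether that spread is unusual.

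Between the TAM receptors, Mertk took the largest share of summed TPM in every mouse, with 50.3%, 62.1%, 60.2% and 96.3% in mice 1 to 4. The share of Axl was 49.7%, 8.38%, 38.9% and 3.27% (25.1 ± 22.7%), and that of Tyro3 0%, 29.6%, 0.895% and 0.443%. Axl minus Mertk was -1.26 ± 1.16 in log2(TPM + 1), negative in 4 of 4 mice but -0.02 in mouse 1 (exact permutation p = 0.125, adjusted p = 0.143). It did not exceed its SD without mouse 2 or without mouse 4, nor with either transcript length or no length correction, where Axl was the higher gene in mouse 1. Tyro3 minus Mertk was -2.61 ± 1.31, also negative in 4 of 4 mice (exact permutation p = 0.125, adjusted p = 0.143). Axl and Tyro3 did not differ beyond their spread, with Axl higher in 3 of 4 mice by 1.35 ± 2.45 over all mice and lower in mouse 2, where the difference was -1.49 (exact permutation p = 0.375, adjusted p = 0.375). Without mouse 2 the difference was 2.29 ± 1.91, which exceeded its SD, and without mouse 1 or mouse 3 it was 0.54 or 0.80.

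Ligand transcripts outnumbered receptor transcripts in the TAM group. The summed TPM of Gas6 and Pros1 was 10.9, 43.5, 26.3 and 51.8 times that of the 3 receptors in mice 1 to 4, while the receptors summed to 3.52 TPM in mouse 4 and to between 21.9 and 30.5 TPM in the other 3. Mouse 4 thus had the lowest receptor level and the highest ratio.

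Lrp1 (ENSMUSG00000040249, GRCm38 chr10:127538161-127621148, minus strand), the large endocytic receptor that recognises calreticulin on dying cells, had the lowest coefficient of variation of the 10 genes over the 4 mice. Without mouse 4 Mertk was lower (23.4%, against 29.8% for Lrp1), and without mouse 2 Pros1 was lower (19.1%, against 19.2%). It had 3217, 3724, 4299 and 1853 counts in mice 1 to 4, or 10.3, 18.9, 14.0 and 10.1 TPM (13.3 ± 4.12 TPM), with a 1.87-fold range. A coefficient of variation of 30.8% or more was found in 72.6% of the protein-coding genes with a mean from 10 to 100 TPM. Mouse 4 was the lowest library for Lrp1, as for Gas6, Mfge8, Pros1, Mertk and Axl, but for Lrp1 it was close to mouse 1.

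Stab2 and Timd4 were under the floor of 3 counts in every library. Stab2 (ENSMUSG00000035459, GRCm38 chr10:86841198-87008025, minus strand), a scavenger receptor of sinusoidal endothelium, had 1, 0, 0 and 0 counts in mice 1 to 4, where 3 counts correspond to between 0.0195 and 0.0332 TPM. It shares 141 exonic bases (1.61%) with the antisense gene Gm16268, which had 0 counts in every library. Timd4 (ENSMUSG00000055546, GRCm38 chr11:46810800-46844332, plus strand), a phosphatidylserine receptor of resident macrophages, had 0, 2, 0 and 1 counts, where 3 counts correspond to between 0.0785 and 0.134 TPM. Lrp1 was above both in 4 of 4 mice, by 3.80 ± 0.40 over Stab2 and by 3.76 ± 0.37 over Timd4 in log2(TPM + 1) (p = 0.125 in the exact permutation test and 0.143 after adjustment for each). Because 1 TPM was added before the logarithm, the sizes of both differences reflect the level of Lrp1 and understate the ratio.

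Ordered by median TPM, the genes ran Gas6, Mfge8, Pros1, Mertk, Lrp1, Axl, Tyro3, Edil3, Timd4 and Stab2. Of the 9 steps between neighbours, 2 exceeded their spread between mice on the log2(TPM + 1) scale. These were Gas6 over Mfge8, with the dependence on length given above, and Pros1 over Mertk, by 2.66 ± 0.62 in 4 of 4 mice. The other 7 did not. Mfge8 and Pros1 differed by 0.12 ± 1.25, with Mfge8 higher in 3 of 4 mice and lower in mouse 4. Of the 8 differences tested, 7 had one sign in all 4 mice and exceeded their SD with merged exon lengths. Among the 7 were Lrp1 minus Stab2 and Lrp1 minus Timd4, which reflect the level of Lrp1 alone. Stab2 and Timd4 were under the detection floor in every library. With either transcript length, Mfge8 minus Gas6 and Axl minus Mertk did neither.

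**Figure D3:**
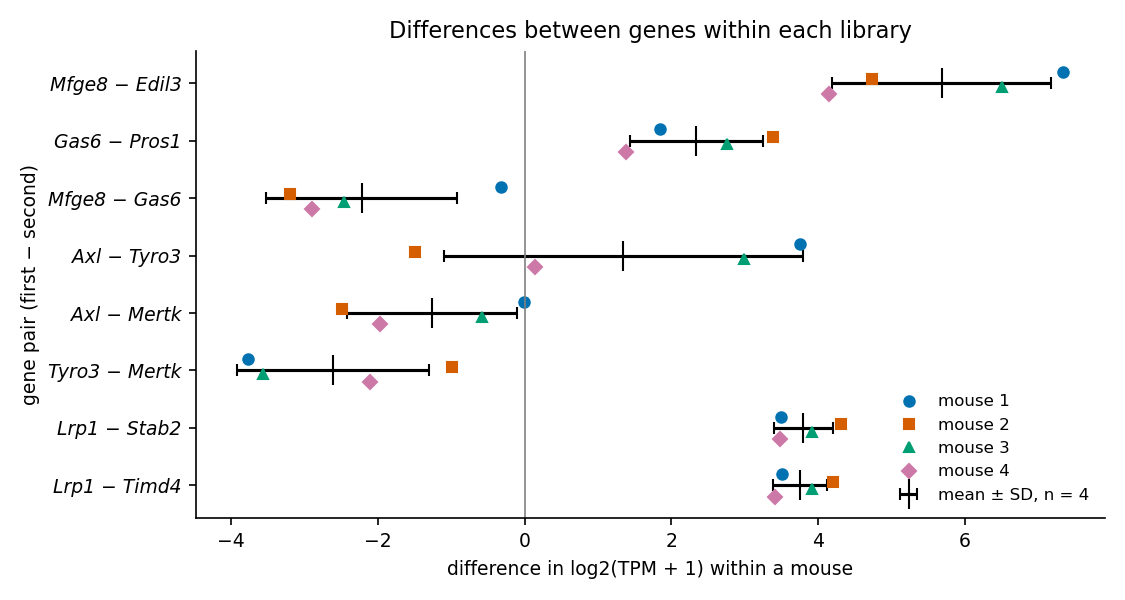
Differences in log2(TPM + 1) between the genes of each of the 8 pairs, first minus second, within each mouse. Symbols mark the mice, and black lines the mean ± SD over 4 mice. With merged exon lengths, all pairs but Axl minus Tyro3 had one sign in every mouse. Axl minus Tyro3 was -1.49 in mouse 2, and Axl minus Mertk came closest to 0 in mouse 1.

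**Figure D4:**
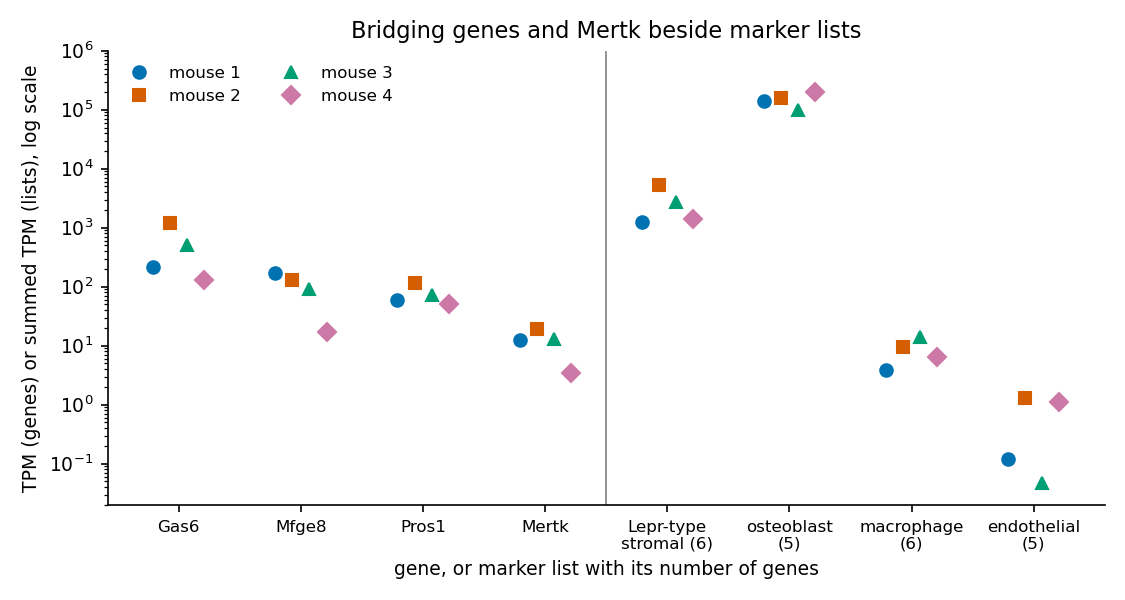
TPM of Gas6, Mfge8, Pros1 and Mertk in each mouse, and summed TPM of 4 marker lists (number of genes in parentheses), on a log axis. Gas6 and the Lepr-type stromal markers were both highest in mouse 2, and macrophage markers lay between 3.92 and 14.3 TPM.

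Other genes of the pathway were read from 7 lists, chosen by function with earlier results of these data known. Their counts past a cutoff are therefore a description only. The lists held 70 genes in all. Of these, 56 had a median above 1 TPM and 43 were above 1 TPM in every mouse, with a median of medians of 10.9 TPM, where 44.2% and 30.1% of all protein-coding genes did so. Among the integrin subunits that can pair as Arg-Gly-Asp receptors, 4 of 6 were above 1 TPM in every mouse, with medians of 175 TPM for Itgb1, 39.4 TPM for Itgb5, 15.9 TPM for Itgav and 7.02 TPM for Itgb3. Itgav pairs with Itgb3 or Itgb5 in the integrins that bind Mfge8 and Edil3. Itgb8 and Itgb6 had medians of 0.247 and 0.00632 TPM. Itgav (18.1, 14.3, 12.9 and 17.5 TPM in mice 1 to 4) was not low in mouse 4, the low library for Mfge8, and Itgb3 was lowest in mouse 1 (1.66, 6.96, 10.3 and 7.08 TPM), the high one.

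The Gla domains of Gas6 and Pros1 need gamma-carboxylation. Its enzymes Ggcx, the carboxylase, and Vkorc1, which recycles vitamin K, had medians of 96.7 and 922 TPM and were above 1 TPM in every mouse. Vkorc1l1, a paralogue of Vkorc1, had a median of 12.2 TPM but 1 count in mouse 4. Of the proteases that shed Axl and Mertk, Adam10 had a median of 28.2 TPM and was above 1 TPM in every mouse, and Adam17 had 9.17 TPM but 3 counts in mouse 2. All 5 genes of this list passed the cutoff, and 3 did so in every mouse.

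Of 20 other bridging proteins and phosphatidylserine receptors, 9 passed the cutoff, 6 were above 1 TPM in every mouse and 8 had at most 3 counts in each mouse. The shares past the cutoff and above 1 TPM in every mouse were near those of all protein-coding genes (44.2% and 30.1%). The highest medians were 785 TPM for Anxa5 and 152 TPM for Anxa1, which bind phosphatidylserine, and 70.5 TPM for Thbs1, a matrix bridge. Adgrb1, Timd2 and the complement subunit C1qc had 0 counts in every library. C1qb, named after its values were seen, had 176 counts in mouse 3, the library with 144 counts of Cd68, and 0 counts elsewhere. The macrophage markers C1qa, Csf1r and Adgre1 had 0 counts in mouse 3, as did C1qc. The part of macrophages in the C1qb counts was not tested.

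For Lrp1, the list held its ligand Calr (calreticulin, median 187 TPM), its chaperone Lrpap1 (82.6 TPM), its sorting factor Snx17 (55.3 TPM) and the pair Cd47 and Sirpa, which restrains uptake (92.3 and 1.24 TPM). All 5 passed the cutoff, and all but Sirpa were above 1 TPM in every mouse. Of the engulfment machinery, 13 of 13 genes passed the cutoff and 10 did so in every mouse, led by Cdc42 (331 TPM), Rac1 (68.6 TPM) and Rhog (58.9 TPM) and lowest for Arhgef26 (1.81 TPM) and Trio (1.50 TPM). Of 12 genes for degradation and the lipid response after uptake, all passed and 11 did so in every mouse, with Lamp1 (392 TPM), Rab7 (250 TPM) and Atg5 (38.6 TPM) highest and Abca7 (2.11 TPM) and Rubcn (1.71 TPM) lowest. Of 9 genes that expose or withdraw phosphatidylserine, 8 passed and 5 did so in every mouse, from Tmem30a (52.8 TPM), Plscr1 (25.1 TPM) and Ano6 (17.2 TPM) down to Xkr8 (0.751 TPM).

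**Figure D5:**
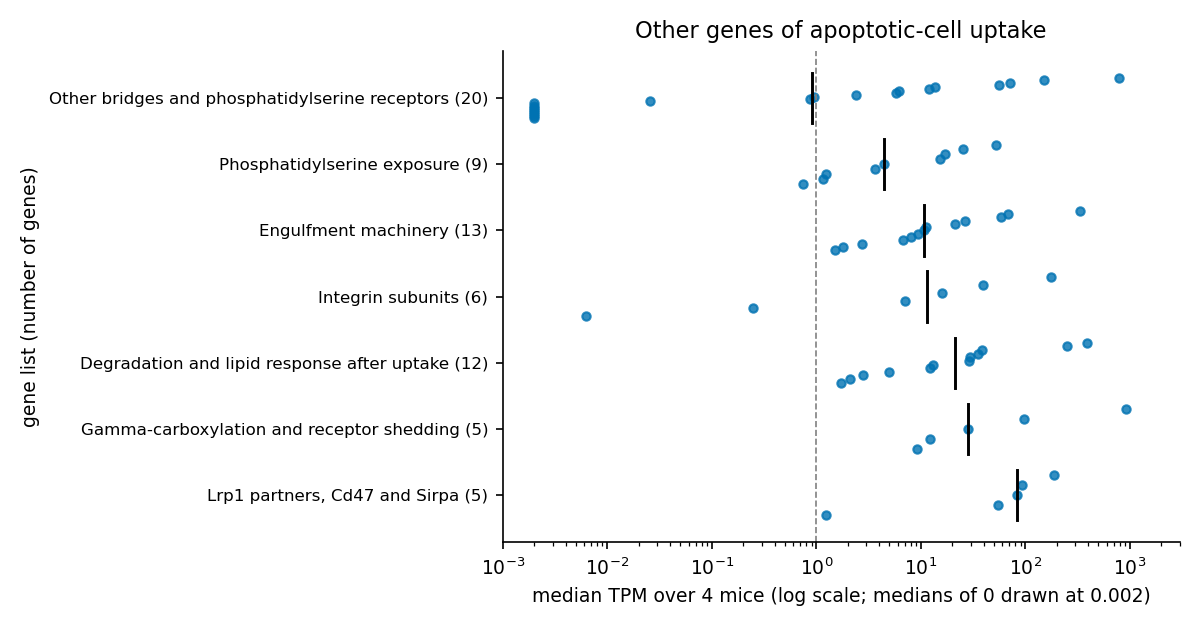
Median TPM over 4 mice of each of the other pathway genes, on a log axis, by list with the number of genes in parentheses. Points are genes, black bars the median of each list, the dashed line 1 TPM, and genes with a median of 0 are drawn at 0.002. All 13 engulfment genes and all 12 degradation genes lay above 1 TPM, against 9 of the 20 other bridges and phosphatidylserine receptors.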

How the data were processed

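Reads had been aligned by the authors with STAR (2.7.10 in the submitters' processing notes) to the GRCm39 genome, with overlapping mates merged and at least 40% of bases aligned, and counted on Ensembl exons with featureCounts (Subread 1.6.5). The authors deposited raw counts per gene and mouse without normalization, and no strand option is given. Total depth was between 22738604 and 43545349 counts, and 3 counts were taken as the detection floor. Intervals and floors cover counting error only, as PCR copies without molecular identifiers are not independent molecules.

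TPM was computed here in Python 3.11.15 (numpy 2.4.6, scipy 1.17.1, pandas 2.3.3) over the 52125 genes with merged exons in GENCODE M21. These lengths and positions belong to GRCm38, not to the build used for counting, and 4855 genes without a length were left out. Exons shared between genes came from the same annotation, and BLAST 2.17.0 was used to look for near-identical copies at 95% identity over at least 100 bases. A pair of genes was compared by its difference in log2(TPM + 1) within each mouse, with an exact permutation test (two-sided, flipping signs) and Benjamini-Hochberg adjustment over 8 pairs. A difference was said to exceed its spread when its mean was larger than its SD. The scripts were tested on simulated data.

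The 10 genes and all lists were chosen with earlier results of these data known. Named were all 10 genes, in each pathway list those at 0 counts throughout, the 3 highest and the 2 lowest, the defining markers, genes sharing exonic bases, and the 5 genes nearest to Mfge8. One gene that this rule would name is not reported here. Alternatives were 2 other gene lengths (1 added after the data were seen), no length, protein-coding genes only, TMM factors (edgeR 4.0.16) and DESeq2 1.42.0 size factors in R 4.3.3, a pseudocount of 0.1, a floor of 3 counts, other cutoffs and summaries, and leaving out each mouse. With 1 group, no differential expression was tested. The labels name each library as a separate mouse, and all 4 count columns were used.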

Additional observations from a re-analysis of the deposited data

Results flagged for a closer look

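In 8 of the 33 values compared over the 4 mice, 1 library stood apart from the other 3. Its gap, as a fraction of the whole range, was larger than Dixon's 95% critical value. Chance would give about 1.65 such values if all were normally distributed. That was not checked for these TPM, sums and shares, so the count of 8 cannot be judged against it. Mouse 2 was the high library for the TPM of Edil3 (0.985) and of Tyro3 (0.978), for the share of Edil3 in the bridging genes (0.952) and for that of Tyro3 in the TAM receptors (0.970). It was also high for the summed phosphatidylserine exposure genes (0.861), with 207 TPM against 118 to 130 TPM, and had the fewest genes detected (0.920). Mouse 1 stood apart in the share of Mfge8 in the bridging genes (0.830 with merged exon lengths), just past the critical value. That share depends on the gene length, with a mean of 17.3% here and 28.8% with the longest protein-coding transcript. Its gap was not computed with other lengths, so this flag may not hold with them. Mouse 1 also stood apart in the summed megakaryocyte markers (0.966), with 7.95 TPM, nearly all of it Gp9, against at most 0.267 TPM. These values share libraries and genes and are not independent.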

How the results depend on the processing

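All 8 differences between genes kept their direction of the mean under each of 12 alternatives, 96 of 96 values. Most of these outcomes were fixed in advance. Scaling factors and another pseudocount cannot change the sign of a difference within a mouse. For the 7 differences with one sign in every mouse, leaving out a mouse cannot reverse the mean either. The count of 96 is therefore no measure of stability. Mfge8 minus Gas6 ranged from -2.86 to -1.09, with Mfge8 the higher gene in mouse 1 under the other lengths and without length correction. Axl minus Mertk ranged from -1.88 to -0.86. The number of genes past the cutoff was 5 when more than 1 TPM, or at least 10 counts, was required in each mouse, 8 with a mean above 1 TPM, which added Tyro3 and Edil3 through mouse 2, and 6 under all other alternatives. Leaving out each mouse in turn moved the share of Axl in the TAM receptors between 16.9% and 32.3%. No paired analysis was possible because there are no groups of samples to pair, and only genes were compared within a mouse. The permutation test with 4 mice cannot pass 0.05, so its p says nothing on stability. Counting error limits Stab2, Timd4, Edil3 and Tyro3 outside mouse 2.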
